A study of Rattus norvegicus with 3 samples.

Results

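The subject is a set of 6 genes of the basic helix-loop-helix (bHLH) superfamily, followed through the embryonic rat cerebral cortex: Neurod1, Neurod2, Neurod6, Nhlh1, Nhlh2 and Bhlhe22. They were chosen by symbol as differentiation genes of the excitatory lineage, and all 6 were found among the 29772 genes of the count tables. The data were droplet-based single-cell RNA-seq counts of unique molecular identifiers (UMIs) from freshly dissociated cortex of wild-type rats, in 3 libraries labelled E14, E16 and E18 for the embryonic day. Each label had 1 library, so no test between ages was possible, and every difference below is a difference between libraries. The number of embryos pooled and the strain were not given in the sources used here. The library protocol also describes cultured and sorted human cells, and which of its steps were applied to the rat cells is not known.

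The libraries held 7100, 6707 and 6937 barcodes in the order E14, E16 and E18, with 62740631, 80974234 and 73727823 UMIs, and they shared 12 to 17 barcodes in pairs. After filtering, 4286, 4977 and 5431 cells remained, with medians of 10477 to 12264 UMIs per cell. The library labelled E16 stood apart from the other libraries in ways that go against the order of the labels. Embryonic globins made up 67.4% of its globin UMIs, against 2.57% in the library labelled E14 and 22% in that labelled E18. In radial glia, Hmga2, a gene of early progenitors, was at 235 CPM (UMIs of a gene per 1000000 UMIs of the cells summed) in E16 against 11.4 in E14 and 21.3 in E18. The library labelled E14 broke the order too, since Aldoc, a gene of late radial glia and astrocytes, was at 706 CPM there against 15 in E16 and 239 in E18, and Hopx at 443 against 122 and 237. On each of these measures E18 lay between E16 and E14, and whether the labels match the ages was not tested. A ratio over E14 below is thus a ratio over the library with that label. E14 also lost most cells under a stricter cell filter, which kept 322 of 4286, against 3554 of 4977 in E16 and 2617 of 5431 in E18, and the part of this in the differences from E14 was not tested. Values are therefore given by library label, and no trend with age is drawn from them.

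Proteins of the bHLH superfamily bind DNA as dimers, usually with a broadly present E protein such as Tcf3, Tcf4 or Tcf12, at the E-box CANNTG. In the cortex, radial glia make intermediate progenitors, which carry the T-box factor Eomes and divide to give excitatory neurons. Neurog2 starts the neuronal programme, and the genes described here act after it: Neurod1 is switched on in intermediate progenitors and their newborn neurons, and Neurod2 and Neurod6 mark the excitatory neurons that follow. Nhlh1 and Nhlh2 are short-lived factors of newly formed neurons across the nervous system. Bhlhe22 is a repressor that works with Prdm8 and shapes the identity of projection neurons.

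Promoter sequences were available for 5 of the 6 members. They are shown for both pairs whose levels moved most closely together across classes, Neurod2 with Neurod6 and Nhlh1 with Nhlh2. Each is the 250 bases before the RefSeq start site in build GRCr8, written 5′ to 3′ on the gene's strand, with every CANNTG in capitals. The windows are chr10:83824278-83824527 on the minus strand for Neurod2, chr4:86180156-86180405 minus for Neurod6, chr13:87054935-87055184 minus for Nhlh1 and chr2:192132598-192132847 plus for Nhlh2.
Neurod2: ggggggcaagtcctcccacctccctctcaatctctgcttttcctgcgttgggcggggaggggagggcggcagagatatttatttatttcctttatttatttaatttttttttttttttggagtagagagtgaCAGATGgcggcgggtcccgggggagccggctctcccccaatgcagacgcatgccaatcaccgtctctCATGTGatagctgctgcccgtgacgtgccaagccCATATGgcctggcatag
Neurod6: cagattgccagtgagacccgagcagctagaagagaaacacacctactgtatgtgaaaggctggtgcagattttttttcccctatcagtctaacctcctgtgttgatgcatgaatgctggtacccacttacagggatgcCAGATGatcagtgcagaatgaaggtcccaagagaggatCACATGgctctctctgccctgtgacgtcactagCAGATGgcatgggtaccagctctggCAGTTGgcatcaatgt
Nhlh1: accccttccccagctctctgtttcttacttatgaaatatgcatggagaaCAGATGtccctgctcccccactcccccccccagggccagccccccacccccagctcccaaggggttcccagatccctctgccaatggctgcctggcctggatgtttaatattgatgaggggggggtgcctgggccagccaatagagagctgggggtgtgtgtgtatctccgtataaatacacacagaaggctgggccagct
Nhlh2: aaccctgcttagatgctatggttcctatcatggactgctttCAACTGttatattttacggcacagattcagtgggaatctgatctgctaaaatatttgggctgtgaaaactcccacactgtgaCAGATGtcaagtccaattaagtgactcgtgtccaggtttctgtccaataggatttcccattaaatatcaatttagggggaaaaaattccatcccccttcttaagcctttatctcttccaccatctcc
The E-box form CAGATG, which Neurog and Neurod proteins are known to favour, is itself a CANNTG and was searched on both strands. It lay 118 bases before the start in Neurod2, 112 and 41 bases before it in Neurod6, 201 in Nhlh1 and 127 in Nhlh2. The window of Neurod1 (chr3:84770455-84770704, minus strand) held no CAGATG and a single CANNTG, the letters CAACTG 51 bases before the start. Among 33469 promoter windows of the same length, 14% held CAGATG and 65.5% held CANNTG, and Neurod2 also held CATATG, found in 3.63%. These are matches of letters only, and binding was not measured.

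Cells were clustered without the 6 members, and clusters were named from marker genes. Each class name below stands for a cluster that is like that type by its markers. Radial glia numbered 438, 2261 and 1872 cells in E14, E16 and E18, and intermediate progenitors numbered 425, 440 and 1150. Newborn excitatory neurons numbered 1238 in E14 and 1609 in E18 but 1 in E16, and maturing excitatory neurons 2086 in E14 and 475 in E18 but none in E16. The neurons of E16 lay mainly in a cluster of 508 cells with too few detected markers to be named. Its leading genes included Calb1, Calb2, Ebf1, Nxph4 and Lhx9, and it is called the Calb1/Lhx9 cluster. The neuron classes were drawn from different clusters in E14 and E18. The E14 newborn cells lay mostly in a cluster led by Sstr2 (1063 cells), and those of E18 in clusters led by Pcp4 (920) and by Neurod1 and Cbln2 (673). The maturing cells of E14 lay in 2 clusters, of which one was led by Dync1i1 (872), and those of E18 in a cluster led by Dact1 and Hs3st4 (455).

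Levels are sums of UMIs over all cells of a class and library, as CPM, with an exact Poisson 95% interval in parentheses that covers counting error only. Shares are of cells with at least 1 UMI after every cell was thinned to 2000 UMIs, with exact Clopper-Pearson 95% intervals, and 19, 34 and 35 cells of E14, E16 and E18 were too shallow for that. Free RNA in the droplets sets a floor. In 343 microglia, erythroid and meningeal cells (median 20921 UMIs), the members stood at 0.988 CPM (Nhlh1) to 6.67 CPM (Neurod6), and 0 to 1.46% of these cells had a UMI after thinning. A share of 0 there allows up to 1.07%. Radial glia were near that floor for every member in E16, where levels ran from 0.768 CPM for Nhlh2 to 4.80 CPM for Neurod1. In E14, Neurod6 reached 50.6 CPM (45.2 to 56.4) in radial glia, but it also stood at 48.9 CPM in the 16 meningeal cells of that library. Radial glia levels are for that reason not read as expression.

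**Figure D1:**
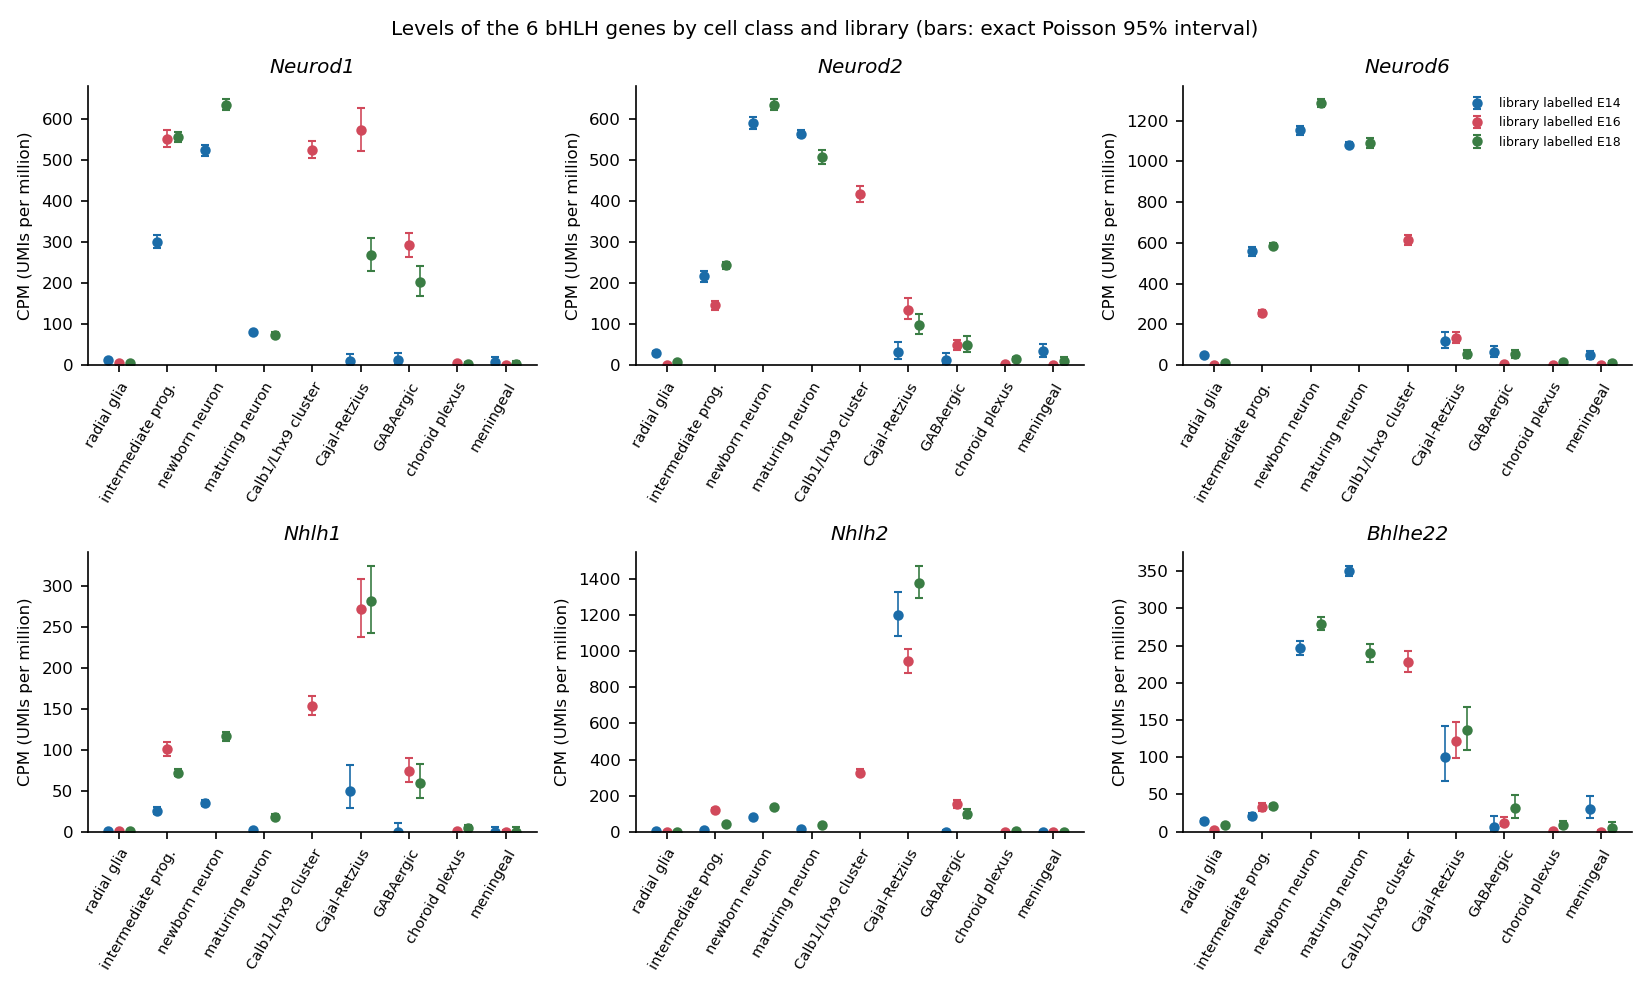
Level of each member by cell class, in CPM, with 1 point for each library and exact Poisson 95% intervals. Neurod1 is high in intermediate progenitors and newborn neurons and lower in maturing neurons, Neurod2, Neurod6 and Bhlhe22 are high in both neuron classes, and Nhlh2 is highest in Cajal-Retzius cells.

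Neurod1, the first of the family to act, was abundant in intermediate progenitors and newborn neurons and low in maturing neurons. In intermediate progenitors it stood at 301 CPM (286 to 317) in E14, 552 (532 to 574) in E16 and 556 (544 to 569) in E18. Newborn neurons had 523 CPM (510 to 537) in E14 and 635 (622 to 648) in E18, and maturing neurons 80.1 (76.9 to 83.4) and 74.5 (67.9 to 81.5). Both maturing values lay below every progenitor and newborn value. The Calb1/Lhx9 cluster of E16 had 525 CPM (504 to 546), inside the range of the newborn and progenitor values. Newborn neurons, that cluster, intermediate progenitors and Cajal-Retzius cells overlapped in sequence over libraries, so their order for Neurod1 is not resolved.

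Neurod2 and Neurod6, both factors of postmitotic excitatory neurons, had the same order of classes. Neurod2 stood at 217 CPM (204 to 230), 146 (136 to 157) and 244 (235 to 252) in intermediate progenitors of E14, E16 and E18. It was at 591 (576 to 606) and 636 (623 to 649) in newborn neurons of E14 and E18, and at 565 (556 to 573) and 508 (490 to 526) in maturing neurons. Neurod6 stood at 558 CPM (538 to 580), 257 (243 to 272) and 587 (574 to 601) in intermediate progenitors. Its newborn levels were 1153 CPM (1132 to 1173) in E14 and 1287 (1269 to 1305) in E18, and its maturing levels were 1082 (1070 to 1094) and 1092 (1066 to 1118). For both genes the order newborn, maturing, Calb1/Lhx9 cluster, intermediate progenitor held with no overlap between libraries. Neurod6 was found in 87.3% of newborn neurons of E14 and 90.4% of those of E18 after thinning, and Neurod2 in 65.5% and 69.5%.

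Nhlh1 and Nhlh2, the short-lived pair, were highest in Cajal-Retzius cells, the Reln-producing pioneer neurons of the marginal zone. Nhlh2 reached 1203 CPM (1086 to 1330), 947 (882 to 1015) and 1381 (1293 to 1474) there in E14, E16 and E18, from 16, 89 and 51 cells. A UMI of Nhlh2 was found in 81.2%, 83.1% and 88.2% of those cells after thinning, and in 100%, 98.9% and 100% before it. The Calb1/Lhx9 cluster had 328 CPM (312 to 345) of Nhlh2, and newborn neurons 82.9 (77.5 to 88.6) in E14 and 139 (133 to 145) in E18. The Cajal-Retzius and Calb1/Lhx9 levels did not overlap with each other or with those of any other class. Maturing neurons had 13.0 CPM (11.7 to 14.3) in E14 and 36.2 (31.7 to 41.2) in E18. Nhlh1 followed the same pattern, with 272 CPM (238 to 310) and 282 (243 to 325) in Cajal-Retzius cells of E16 and E18 and 154 (143 to 166) in the Calb1/Lhx9 cluster. The 16 Cajal-Retzius cells of E14 had 50.3 CPM of Nhlh1. Newborn neurons stood at 34.7 CPM (31.3 to 38.5) in E14 and 117 (111 to 122) in E18, and maturing neurons at 2.67 (2.11 to 3.33) and 18.1 (15 to 21.7).

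Bhlhe22 was a gene of both neuron classes and was low in intermediate progenitors. Its levels there were 20.9 CPM (17.1 to 25.4) in E14, 33.0 (28.1 to 38.5) in E16 and 34.0 (30.9 to 37.4) in E18. The level of E14 was not above the 30.3 CPM (18.0 to 47.9) of the 16 meningeal cells of that library, but those UMIs came from 2 cells. The 56 GABAergic lineage cells of E14 had 5.97 CPM (0.722 to 21.5). How far the ratios of Bhlhe22 over E14 in progenitors rest on background is thus uncertain. Newborn neurons had 247 (237 to 257) in E14 and 279 (271 to 288) in E18, maturing neurons 350 (344 to 357) and 239 (228 to 252), and the Calb1/Lhx9 cluster 228 (215 to 242). The newborn and maturing levels overlapped, since E14 was the higher library in one class and the lower in the other.

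Within a library, 3 of the 6 members were at least 2-fold higher in newborn than in maturing neurons, in E14 as in E18, where 5.36% and 4.09% of all genes of at least 5 CPM were. None was 2-fold lower, against 4.24% and 6.25% of all genes. The log2 ratios of newborn over maturing, with 1 CPM added, were 2.69 in E14 and 3.07 in E18 for Neurod1, 3.28 and 2.62 for Nhlh1, and 2.59 and 1.91 for Nhlh2. Neurod2 (0.06 and 0.32), Neurod6 (0.09 and 0.24) and Bhlhe22 (−0.50 and 0.22) stayed within 2-fold in both. Bhlhe22 alone differed in sign between the libraries. The 3 members stayed at least 2-fold higher in every alternative that gave a value, with E18 values of 1.68 to 3.16 for Neurod1, 1.37 to 2.83 for Nhlh1 and 1.05 to 2.03 for Nhlh2. Under the stricter cell filter the E18 ratios of Bhlhe22 (−1.69), Neurod2 (−0.35) and Neurod6 (−0.22) turned, and Bhlhe22 passed 2-fold.

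Cells were also placed by a score that uses none of the members: the share of neuronal transcripts among the UMIs of 8 progenitor and 11 neuron genes. The score runs from 0 (progenitor genes only) to 1 (neuron genes only), and the onset of a gene is the score at which it first reached 50% of its highest level over 10 bins. Over the 4 classes from radial glia to maturing neurons, 4156, 2604 and 5031 cells of E14, E16 and E18 had a score. E16 had no maturing and 1 newborn neuron in these classes, so its highest levels are those of progenitors, and its onsets are not those of a full series to neurons. Eomes came first, with onsets of 0.254, 0.544 and 0.432, but less than 1 bin before Neurod1 in E16, where that step is not resolved. Neurod1 followed at 0.484, 0.619 and 0.566, then Nhlh1 at 0.512, 0.628 and 0.617. Neurod6 came at 0.566, 0.716 and 0.665 and Nhlh2 at 0.759, 0.765 and 0.774. The order Neurod1, Nhlh1, Neurod6, Nhlh2 was the same in 3 of 3 libraries. Neurod1 and Nhlh1, and Nhlh1 and Neurod6, lay less than 1 bin apart in each library, so those steps are not resolved by the bins. Neurod6 and Nhlh2 were more than 1 bin apart in E14 and E18 and less in E16. Bhlhe22 was last in 3 of 3 libraries, at 0.893, 0.772 and 0.881, but within 1 bin of the gene before it in each, Neurod2 in E14 and E18 and Nhlh2 in E16, so its last place is not resolved either. Neurod2 had onsets of 0.805, 0.668 and 0.786, after Neurod6 in 2 of 3 libraries. With the Calb1/Lhx9 cluster added, Neurod6 (0.728) also preceded Neurod2 (0.757) in E16, and Bhlhe22 (0.873) came over 1 bin after Nhlh2 (0.761). The scale of the score differed between libraries, since the median score of intermediate progenitors was 0.598 in E14, 0.739 in E16 and 0.709 in E18, so onsets are compared within a library only.

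**Figure D2:**
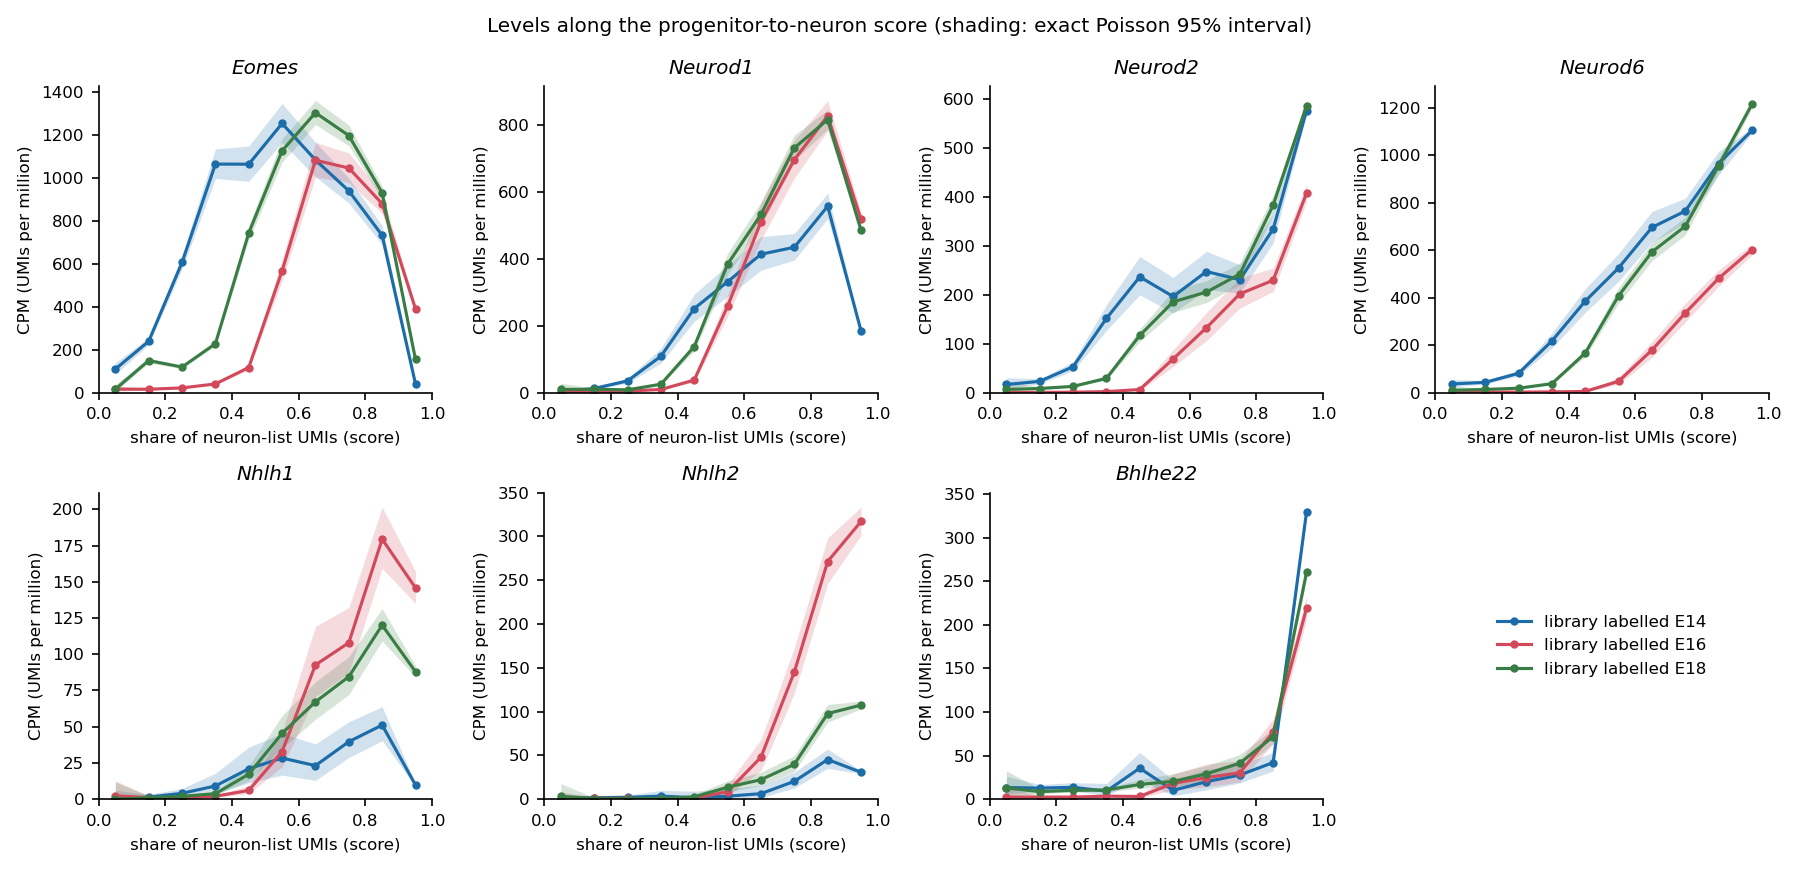
Level of Eomes and each member in CPM along the score from progenitor to neuron transcripts, by library, with the Calb1/Lhx9 cluster included and exact Poisson 95% intervals as shading. In the last bin Neurod1 and Nhlh1 are lower again, for Nhlh1 in E16 only with that cluster included, while Neurod2, Neurod6 and Bhlhe22 are at their highest.

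The last bins of the score separated the members as the classes had, except for Nhlh2. Between the bins centred on 0.85 and 0.95, with the Calb1/Lhx9 cluster included, Neurod1 went from 557 to 185 CPM in E14, from 827 to 518 in E16 and from 817 to 486 in E18. Nhlh1 went from 51.1 to 9.73, from 179 to 146 and from 120 to 87.9 CPM. Both were lower in the last bin in 3 of 3 libraries with that cluster included. Without it, Nhlh1 in E16 was at its highest in the last bin, at 160 CPM (130 to 195) against 151 (128 to 176) in the bin before, and was lower in the last bin in 2 of 3 libraries, while Neurod1 kept its direction in E16 (859 to 694). Over the same step Bhlhe22 went from 41.9 to 329 CPM, from 76.8 to 219 and from 71.6 to 260, and Neurod6 from 964 to 1104, from 481 to 602 and from 955 to 1215. Nhlh2 was lower in the last bin of E14 (45.2 to 30.6) and higher in that of E16 (271 to 317) and E18 (97.7 to 107).

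Single cells were then gated at 2000 UMIs by Eomes, Neurod1 and Neurod6, and the members outside the gate were read. Cells with Eomes alone numbered 183, 267 and 432 in E14, E16 and E18, and cells with Eomes and Neurod1 but no Neurod6 numbered 86, 218 and 210. The former included 72, 73 and 207 radial glia and the latter 3, 1 and 7, with 37 newborn neurons in E14, 30 in E18 and 57 cells of the Calb1/Lhx9 cluster in E16, so the gate and the class cannot be told apart over all cells. In 11 of 12 pairs of gene and library, Neurod2, Nhlh1, Nhlh2 and Bhlhe22 were found in a larger share of the cells with Eomes and Neurod1 than of the cells with Eomes alone. The exception was Bhlhe22 in E14, at 3.49% against 4.37%, which rests on 3 of 86 cells. Nhlh2 was found in 1.09% (0.133 to 3.89), 12.7% (8.98 to 17.3) and 1.62% (0.654 to 3.31) of cells with Eomes alone. It was found in 12.8% (6.56 to 21.7), 28.4% (22.6 to 34.9) and 9.52% (5.91 to 14.3) of those that also had Neurod1. These intervals did not overlap in any library. Nhlh1 went from 2.73%, 12% and 5.09% to 5.81%, 22.9% and 17.1%, with overlapping intervals in E14 alone.

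**Figure D3:**
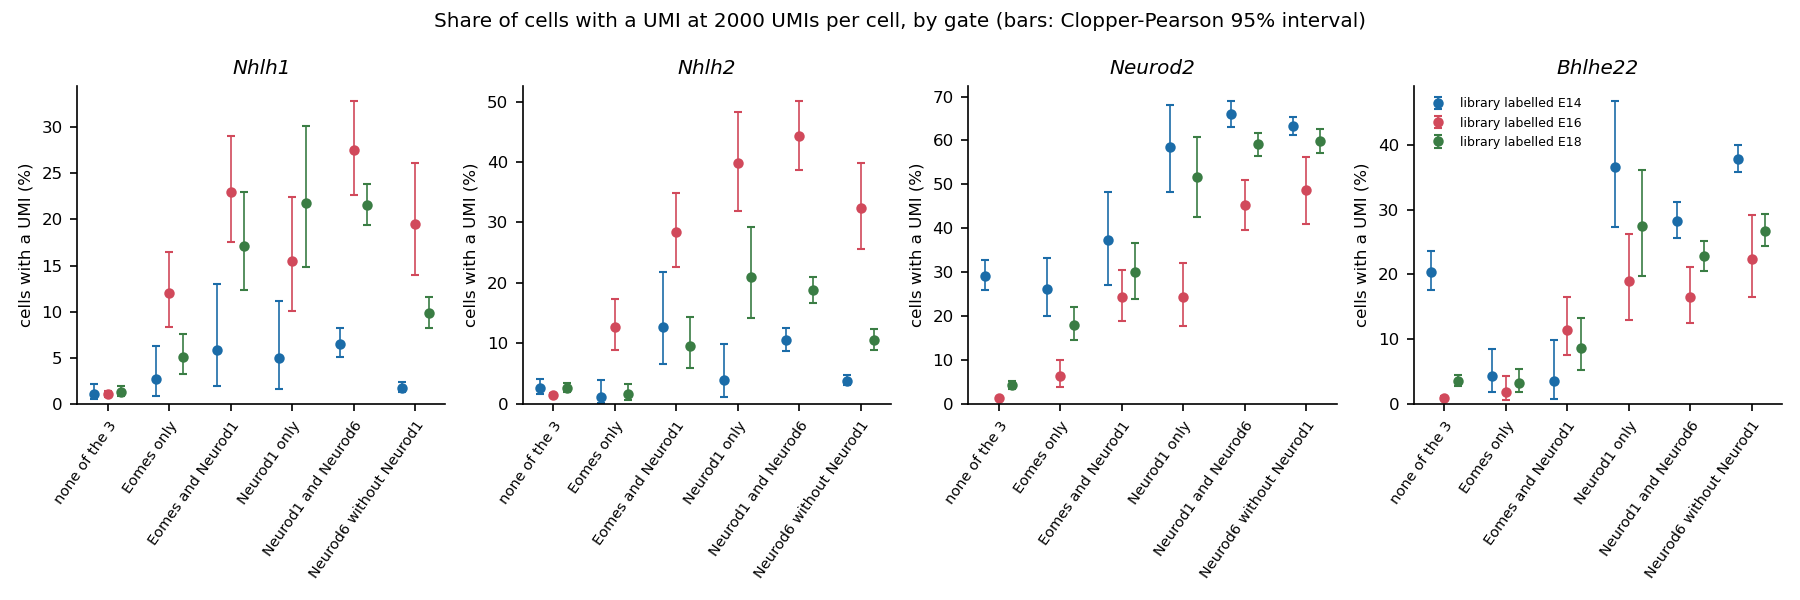
Share of cells, in percent, with a UMI of Neurod2, Nhlh1, Nhlh2 and Bhlhe22 at 2000 UMIs per cell in gates set by Eomes, Neurod1 and Neurod6, by library, with exact Clopper-Pearson 95% intervals. The shares of Nhlh1 and Nhlh2 are lower in cells with Neurod6 and no Neurod1 than in cells with both, and those of Bhlhe22 are higher.

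The step from cells with Neurod1 and Neurod6 (999, 309 and 1327) to cells with Neurod6 but no Neurod1 (2169, 179 and 1285) parted the later members. The gates also differed in their classes. In E14 the cells with both were 615 newborn and 265 maturing neurons, and those without Neurod1 463 newborn and 1516 maturing neurons, so the step and these classes cannot be told apart over all cells. In E18 these numbers were 807 and 39 against 647 and 365, and in E16 the Calb1/Lhx9 cluster gave 185 and 124 of the cells. Intermediate progenitors, low in Bhlhe22, gave 115, 114 and 473 of the cells with both and 132, 27 and 223 of those without Neurod1. The step and the class thus cannot be told apart in E16 and E18 either. Nhlh1 was found in 6.51%, 27.5% and 21.6% of cells with both and in 1.75%, 19.6% and 9.81% of cells without Neurod1. Its level over the full counts was 28.3, 159 and 120 CPM with both and 6.74, 105 and 51.1 without Neurod1. Nhlh2 stood at 10.5%, 44.3% and 18.8% with both and at 3.83%, 32.4% and 10.6% without Neurod1. Both were lower without Neurod1 in 3 of 3 libraries, with overlapping intervals in E16. Bhlhe22 had the opposite direction in 3 of 3, at 28.3% (25.6 to 31.2), 16.5% (12.5 to 21.1) and 22.8% (20.6 to 25.2) with both and 37.9% (35.8 to 39.9), 22.3% (16.5 to 29.2) and 26.8% (24.4 to 29.3) without Neurod1, with intervals apart in E14 only. Neurod2 was nearly level, at 66.1%, 45.3% and 59.1% against 63.3%, 48.6% and 59.8%.

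Members were often found in the same cells. In thinned counts, the median newborn neuron had UMIs of 3 of the 6 members, and 52.0% of newborn neurons in E14 and 63.0% in E18 had at least 3. The median was 1, 1 and 2 members in intermediate progenitors of E14, E16 and E18, 2 in maturing neurons and 0 in radial glia. In intermediate progenitors, Neurod6 was found in 68.9% (61.2 to 75.8), 42.2% (36.3 to 48.4) and 71.2% (67.6 to 74.7) of cells with Neurod1. In cells without a UMI of Neurod1 it was found in 51.8% (45.4 to 58.0), 16.3% (11 to 22.8) and 46.0% (41.5 to 50.5). The intervals did not overlap in 3 of 3 libraries. In newborn neurons Neurod6 was found in most cells with and without Neurod1, at 86.7% against 88.0% in E14 and 89.4% against 91.8% in E18. Cells share their library and thinning drops transcripts, so these shares describe cells of these libraries only.

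In newborn neurons and in the Calb1/Lhx9 cluster, Nhlh2 was more frequent in cells with Neurod1 than in those without it. In newborn neurons it was found in 16.1% (13.5 to 19.0) of cells with Neurod1 and 7.60% (5.49 to 10.2) of those without it in E14, and in 23.6% (20.9 to 26.5) against 15.7% (13.1 to 18.6) in E18. In the Calb1/Lhx9 cluster of E16 the shares were 51.5% (45.6 to 57.4) and 31.3% (25.2 to 38.0). Intermediate progenitors had the same direction in E16, at 20% (15.4 to 25.3) and 10.2% (6.08 to 15.9), and in E18, at 10.1% (7.91 to 12.6) and 2.68% (1.43 to 4.54), with intervals apart in E18 only. In those of E14 it was found in 2 of 167 and 4 of 255 cells, near the floor. In maturing neurons the direction differed between the libraries, and the intervals overlapped in each. Nhlh2 was found there in 1.00% (0.207 to 2.90) of cells with Neurod1 and 2.47% (1.80 to 3.31) of those without it in E14. In E18 it was found in 9.30% (2.59 to 22.1) of 43 cells with Neurod1 and 6.18% (4.07 to 8.92) of those without it. Bhlhe22 was less frequent with Neurod1 than without it in newborn neurons of E14, at 25.4% (22.2 to 28.8) against 33.3% (29.3 to 37.5), and nearly level in E18, at 32.1% against 34.0%. In the other classes it was as frequent with Neurod1 as without it or more so, at 45.5% against 44.2% in maturing neurons of E14, 44.2% (29.1 to 60.1) against 29.0% (24.7 to 33.6) in those of E18, and with overlapping intervals in intermediate progenitors of each library and the Calb1/Lhx9 cluster. In intermediate progenitors of E18, Nhlh1 was found in 33.8% (23.6 to 45.2) of cells with Nhlh2 and 13.7% (11.7 to 15.9) of those without it. The shares overlapped in E16, at 29.6% (19.3 to 41.6) and 16.2% (12.5 to 20.3), and in E14 none of 6 cells with Nhlh2 had Nhlh1, against 4.81% of the others.

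Intermediate progenitors were split by 8 mitotic genes, with at least 2 UMIs of these at 2000 UMIs per cell taken as the mitotic group. That group held 190, 344 and 622 cells of E14, E16 and E18, against 232, 92 and 527 outside it. Nhlh1 stood at 22.2 CPM (16.8 to 28.8), 87.6 (78.7 to 97.2) and 56.2 (51.1 to 61.8) in the mitotic group and at 28.9 (22.4 to 36.6), 165 (138 to 195) and 96.6 (88.2 to 106) outside it. Nhlh2 stood at 6.63, 111 and 28.5 CPM in the mitotic group and at 10.6, 161 and 61.9 outside it. Both were higher outside the mitotic group in 3 of 3 libraries, with intervals apart in E16 and E18. The clusters did not follow that split. Nhlh1 in the cluster with the mitotic genes Ube2c and Hmmr (31.0, 134 and 95.4 CPM) was about level with that led by Eomes and Efl1 (30.2, 139 and 93.7), and Nhlh2 was highest in the former of the 3 clusters in each library. The low values lay in the cluster led by Gadd45g and the histone gene H1f5, where Nhlh1 was at 12.8, 69.1 and 34.1 CPM. Neurod6 had the reverse direction in 3 of 3, at 620 (590 to 651), 278 (262 to 295) and 623 (606 to 641) CPM in the mitotic group and 491 (463 to 520), 156 (130 to 185) and 532 (513 to 553) outside it. Neurod1 stood at 279, 547 and 515 CPM in the mitotic group and at 326, 576 and 620 outside it, with overlapping intervals in E16. The clusters did not follow this split either. Neurod1 was highest in the cluster with Ube2c and Hmmr (363, 683 and 746 CPM). It stood at 319, 523 and 586 in that led by Eomes and Efl1, and at 225, 496 and 420 in that led by Gadd45g and H1f5. Bhlhe22 was higher in the mitotic group of E14 (30.0 against 11 CPM) and E18 (40.7 against 23.9) and nearly level in E16 (33.3 against 31.5).

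Over E14, the Nhlh pair differed more than the other members in intermediate progenitors. In intermediate progenitors Nhlh1 stood at 25.4 CPM (21.1 to 30.3) in E14, 101 (92.2 to 110) in E16 and 72.1 (67.5 to 76.9) in E18. Nhlh2 stood at 8.53 (6.15 to 11.5), 120 (110 to 130) and 41.6 (38.2 to 45.3). E14 was lowest and E16 highest for both genes. Unthinned, 24.2%, 55% and 45.0% of these cells had a UMI of Nhlh1 and 6.59%, 37.7% and 19.5% one of Nhlh2, and after thinning the shares were 4.74%, 18.3% and 15.1% and 1.42%, 16.3% and 6.96%. The order of the libraries was the same in each of the 3 clusters of intermediate progenitors. In the cluster led by Eomes and Efl1 Nhlh2 had 6.36, 122 and 57.1 CPM, in that led by Gadd45g and H1f5 4.26, 71.9 and 13.5, and in that with Ube2c and Hmmr 20.0, 209 and 60.1.

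Over E14, Nhlh1 and Nhlh2 were at least 2-fold higher in intermediate progenitors of E16, with log2 ratios of 1.95 and 3.66 after adding 1 CPM, and Neurod6 was lower (−1.12). Of all genes of at least 5 CPM in that comparison 2.97% were at least 2-fold higher and 7.55% lower. For E18 over E14 the 2 called members were again Nhlh1 (1.47) and Nhlh2 (2.16), both higher, against 0.968% of all genes higher and 2.01% lower. For E18 over E16, Neurod6 was higher (1.19, with 2.55% of genes) and Nhlh2 lower (−1.50, with 1.35%). These 3 comparisons share libraries pairwise. The member median was 0.75, 0.78 and 0.03 in turn, and that of all genes −0.11, −0.05 and 0.07. Neurod1 stayed under 2-fold over E14 in both E16 (0.87) and E18 (0.88), as did Bhlhe22 (0.63 and 0.68) and Neurod2 (−0.57 and 0.17). For E16 over E14 at 1.5-fold, 4 members were above the threshold and 1 below it, where 8.64% and 19.5% of all genes were. For E18 over E14 at 1.5-fold, 4 members were higher and none lower, against 4.23% and 8.5% of all genes. Under the stricter cell filter Neurod1 passed 2-fold in both (1.27 and 1.14). Over the alternatives of clustering and filtering, Neurod6 ran from −1.24 to −0.69 for E16 over E14 and from 0.53 to 1.29 for E18 over E16, and clustering the libraries separately ended both calls. The first also ended after removal of 2 times as many doublets (−0.96) and under the stricter cell filter (−0.84). The call of Nhlh2 for E18 over E16 was lost without doublet removal, over a range of −2.06 to −0.91.

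The intermediate progenitors of E14 lay at lower scores than those of the other libraries, and the part of this in the ratios above was not tested. Since the scale of the score differed between libraries, an equal score need not mark an equal stage. The values at matched scores are thus a description only. At matched scores of 0.7 to 0.8, Nhlh2 stood at 20.3 CPM (12.7 to 30.7) in E14, 144 (120 to 172) in E16 and 39.8 (31.5 to 49.6) in E18. Nhlh1 stood at 39.6 (28.7 to 53.3), 105 (84.6 to 130) and 84.7 (72.3 to 98.5), and Neurod1 at 435 (396 to 476), 691 (636 to 750) and 731 (694 to 770). Neurod6 stood at 764 (713 to 818), 334 (296 to 375) and 701 (665 to 739). The directions of E16 and E18 over E14 for Nhlh1, Nhlh2 and Neurod1 were those of the whole class, and Neurod6 was again lowest in E16. The ratios of Nhlh1, Nhlh2 and Neurod1 over E14 were smaller than over the class, and that of Nhlh2 for E18 over E14 was under 2-fold, with a log2 ratio of 0.94 against 2.16. Nhlh2 for E16 over E14 had 2.77 against 3.66, and Nhlh1 1.39 and 1.08 against 1.95 and 1.47. Neurod6 for E16 over E14 was no smaller, at −1.19 against −1.12. Bhlhe22 for E16 over E14 went from 0.63 to 0.04 and for E18 over E14 from 0.68 to 0.56, both then under 1.5-fold, and Neurod2 for E16 over E14 from −0.57 to −0.20. Neurod6 for E18 over E14 had the opposite sign at matched scores (−0.12 against 0.07), both under 2-fold. These bins held 95, 70 and 176 cells of the 4 classes.

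**Figure D4:**
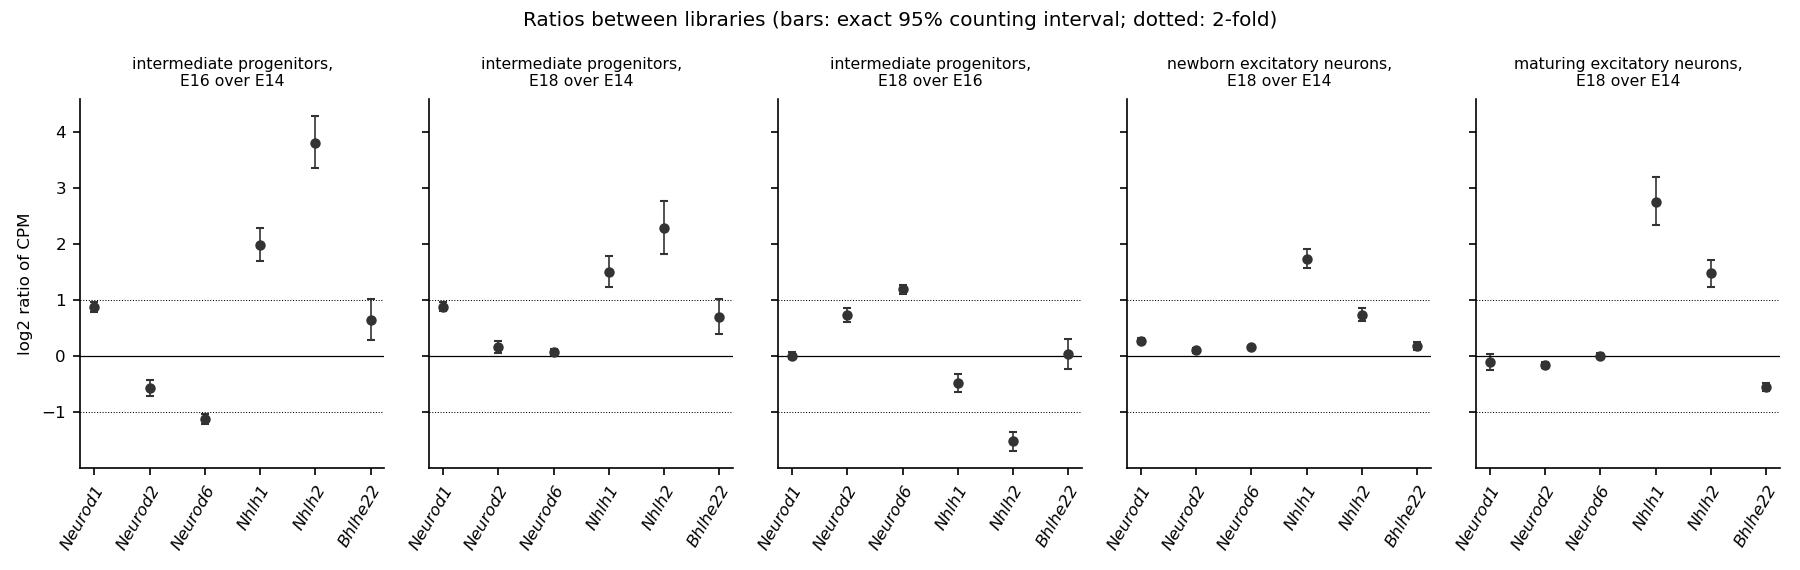
Log2 ratio of each member between libraries within intermediate progenitors, newborn neurons and maturing neurons, with 95% intervals for counting error and dotted lines at 2-fold, computed without added CPM. Nhlh1 and Nhlh2 lie above 0 in every comparison over E14, and Neurod6 is at least 2-fold from 0 in the 2 comparisons that involve E16 and near 0 in the others.

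In newborn neurons of E18 over E14 Nhlh1 was the called member, with a log2 ratio of 1.72, where 1.3% of all genes were at least 2-fold higher and 2.13% lower. Nhlh2 was also higher (0.74) but under 2-fold, though it passed 2-fold under 6 alternatives of clustering and doublet removal (0.52 to 1.45 over all), and the other members lay between 0.11 and 0.28. At 1.5-fold, Nhlh1 and Nhlh2 were both called higher, where 4.18% of all genes were higher and 6.38% lower. The cluster of E14 led by Sstr2 had 38.4 CPM (34.3 to 42.9) of Nhlh1. The E18 clusters led by Pcp4 and by Neurod1 had 80.7 (75 to 86.8) and 178 (167 to 190), so both exceeded E14. Those E18 clusters differed from each other also in Neurod1 (422 and 993 CPM), Nhlh2 (96.8 and 210) and, in the reverse direction, Bhlhe22 (352 and 160). Neurod1 and Nhlh1 are themselves leading genes of the latter cluster, so their high levels there restate how it was labelled. Eomes differed too, at 10.3 and 389 CPM. In maturing neurons Nhlh1 (2.38) and Nhlh2 (1.41) were at least 2-fold higher in E18, with 3.02% of all genes (2.01% were lower), while Neurod6 (0.01), Neurod1 (−0.10), Neurod2 (−0.15) and Bhlhe22 (−0.55) were under 2-fold. The value of Neurod1 was not stable, running from −0.13 to 2.17 over the alternatives and passing 2-fold in 5 of them. The maturing level of Nhlh1 in E14, 2.67 CPM, was close to the floor from free RNA.

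Lhx9, a LIM homeobox gene, picked out cells with another balance of members. In neurons of E18, 73 cells with Lhx9 had 1069 CPM (1007 to 1135) of Neurod1 against 438 (429 to 447) in 2005 cells without it. Bhlhe22 was at 421 (382 to 463) against 259 (252 to 266) and Nhlh2 at 195 (169 to 225) against 104 (99.4 to 108), while Neurod2 was lower, at 409 (370 to 450) against 606 (595 to 617). In E16, 126 cells with Lhx9 and 379 without it had nearly the same Neurod1 (545 and 518 CPM) and Bhlhe22 (228 in both), with Nhlh2 at 392 (357 to 429) and 306 (287 to 324) and Neurod6 at 506 (466 to 548) and 652 (625 to 679). In E16 Nhlh1 stood at 184 CPM (161 to 210) with Lhx9 and 144 (132 to 157) without it. Its E18 levels were 111 (91.9 to 134) and 86.0 (82.0 to 90.2). Nhlh1 and Nhlh2 were higher and Neurod6 lower with Lhx9 in both libraries. The E18 cells pooled classes, and 63 of the 73 but 1545 of the 2005 were newborn neurons. Among these newborn neurons Neurod1 stood at 1233 CPM with Lhx9 and 599 without it. The Nhlh1 intervals overlapped there, at 131 (108 to 158) and 116 (110 to 121).

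The class named for the GABAergic lineage, the future inhibitory neurons, had 2 clusters, and members other than Neurod6 were above the floor in 1 of them in E16. The other held 3 cells of E16, too few to be read there. The cluster led by Gad2, Tp73, Dlx1 and Isl1, with 174 cells of E16, had 297 CPM (269 to 327) of Neurod1, 155 (135 to 177) of Nhlh2 and 75.1 (61.3 to 91.1) of Nhlh1, with 263 (237 to 292) of Eomes. Neurod2 stood at 49.6 CPM (38.5 to 62.9) and Bhlhe22 at 12.4 (7.22 to 19.9). Its Neurod6 level was 3.65 CPM (1.18 to 8.51), near the floor. Neurod1 was found in 70 and Eomes in 62 of the 174 cells in full counts, and whether these were the cells with Gad2 or Dlx1 was not tested. The 18 cells of E18 in that cluster had 540 CPM (448 to 646) of Neurod1, 1107 of Eomes and 125 (83.1 to 181) of Neurod6, above the floor, with 107 (68.7 to 159) of Neurod2 and 80.4 (47.6 to 127) of Bhlhe22. The cluster led by Sst, Dlx1 and Maf had 12 CPM of Neurod1 in 55 cells of E14 and 5.24 in 69 cells of E18, and no UMI of Nhlh1 in either, which allows up to 11.1 and 9.67 CPM. In that first cluster 5 members were thus above the floor in both E16 and E18, and Neurod6 in E18 only.

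The balance within each pair shifted between classes. Nhlh2 made up 25.1%, 54.2% and 36.6% of the UMIs of Nhlh1 and Nhlh2 in intermediate progenitors of E14, E16 and E18. Its share was 70.5% and 54.4% in newborn neurons of E14 and E18, 82.9% and 66.7% in maturing neurons, and 96.0%, 77.7% and 83.1% in Cajal-Retzius cells. In both E14 and E18 it was larger in newborn neurons than in intermediate progenitors, and larger again in maturing neurons. The share of Neurod6 in the UMIs of Neurod2 and Neurod6 ran from 63.8% to 72.0% in intermediate progenitors, with 66.1% and 66.9% in newborn and 65.7% and 68.2% in maturing neurons. In Cajal-Retzius cells of E16 and E18 it was 49.6% (42.8 to 56.3) and 35% (25.7 to 45.2), and in the Calb1/Lhx9 cluster 59.5%. It is not read in the Cajal-Retzius cells of E14, where Neurod2 (31.4 CPM) was no higher than in meningeal cells of that library (33.7).

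Likeness to other genes was measured as Pearson's r of log2(CPM + 10) over 21 groups of class and library, among 6008 genes, as a description with no test, since groups share libraries. Nhlh1 and Nhlh2 were each other's nearest gene, at 0.963, and both had Nxph4 second, at 0.95 and 0.956. Neurod2 and Neurod6 were at 0.956 with each other and both were nearest to Kcng1, at 0.962 and 0.960. Neurod1 was nearest to Clvs1 (0.974), Nrn1 (0.967) and Scrt2 (0.944), and Bhlhe22 to L1cam (0.952), Cntn2 (0.940) and Nell2 (0.933). The third gene was Zbtb18 (0.938) for Neurod2, Rprm (0.947) for Neurod6, Slc17a6 (0.946) for Nhlh1 and Cacna2d1 (0.954) for Nhlh2. The least alike members were Neurod6 and Nhlh2, at 0.402.

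The wider network was read in 5 lists. In newborn neurons of E18 over E14, 1.3% of all genes were at least 2-fold higher and 2.13% lower, which is the background for the lists there. Of 8 upstream proneural and progenitor factors, 7 could be compared in those neurons. Gadd45g, a growth arrest gene induced by proneural factors, was higher (200.3 against 85.1 CPM, log2 1.23), and Insm1, a zinc-finger gene of progenitors, was lower (71.5 against 250.5 CPM, −1.79). Of 8 antagonists of bHLH activators (the Hes, Hey and Id genes), 4 could be compared and Hey1 was higher, at 16.1 against 3.12 CPM. None of the 6 E proteins and partners was called, with a list median of −0.14. Of 10 neuronal genes tied to these factors in other work, 9 could be compared and Bcl11b was higher, at 981 against 292 CPM. The 9 other bHLH genes of related groups, Neurod4 and Olig2 among them, were under 5 CPM on average in newborn neurons and could not be compared there. In intermediate progenitors of E18 over E14, none of 8 upstream factors and none of 6 E proteins and partners was called, against 2 of 5 antagonists and 1 of 10 neuronal genes, all higher, where 0.968% of all genes were higher and 2.01% lower. Of the 9 other bHLH genes, Neurod4 alone could be compared in those progenitors, at 12.9 against 14.6 CPM (−0.16), and was not called. List medians there were −0.51 for upstream factors, 0.44 for antagonists, −0.05 for E proteins and partners and 0.04 for neuronal genes, beside −0.05 for all genes.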

How the data were processed

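Single-cell RNA-seq of 3 libraries was analysed from the deposited filtered UMI counts, which the authors made with Cell Ranger 6.0.1 on build mRatBN7.2, per the submitters' processing notes. The annotation, the intron setting and the cell calling are not given in the sources used here. Cells with at least 1000 genes and at most 10% mitochondrial UMIs (13 genes) were kept. The cells with the highest Scrublet scores were removed at 0.8% per 1000 cells, because its own threshold marked 2.54%, 0.0385% and 2.65% of cells. Counts were scaled to 10000 per cell, and 2000 variable genes (without the 6 members), 30 components, 15 neighbours and Leiden clustering at resolution 1 gave 25 clusters (Python 3.11.15, Scanpy 1.11.5, leidenalg 0.10.2, scikit-learn 1.9.0). Clusters were named by the marker list with the highest mean fold (13 classes, 99 of 100 symbols found), if at least 3 markers were 1.2-fold raised and in 20% of cells and no other class had more among the 10 leading genes. This rule was settled after the clusters were seen, and 23 clusters were named.

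Levels are CPM over summed counts. Ratios had 1 CPM added, were taken for genes of at least 5 CPM on average in classes of at least 50 cells, and were called at 2-fold. Placing the Calb1/Lhx9 cluster on the score was added after its cells were seen. Score bins under 20 cells and cells under 20 UMIs of the score genes were left out. Network genes were named where at least 2-fold between libraries in newborn neurons, and for each member the 3 most alike genes were named among genes of at least 50 CPM in 1 group. Levels by neuron kind within maturing neurons are not reported here. The members and lists were chosen with earlier results of these data known. UMI counts of single libraries give intervals for counting error only. The ratio and onset calculations were tested on simulated data. Promoters are from RefSeq, whose build GRCr8 differs from that of the counts. Alternatives covered the cell filter, doublets, clustering, thinning, scaling, thresholds, bins and the score lists.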

Additional observations from a re-analysis of the deposited data

Results flagged for a closer look

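Bhlhe22 and Neurod2 differed between E18 and E14 in opposite directions in different classes, with counting intervals of the ratio that excluded 0 in each. The log2 ratio of Bhlhe22 in E18 over E14 was 0.68 in intermediate progenitors, 0.18 in newborn neurons and −0.55 in maturing neurons. For Neurod2 the ratios were 0.17 in intermediate progenitors, 0.11 in newborn neurons and −0.15 in maturing neurons. All 6 values lay under 2-fold. Over the alternatives, Bhlhe22 in newborn neurons ran from −0.35 to 0.53, Neurod2 in newborn neurons from −0.23 to 0.16, in maturing neurons from −0.19 to 0.11 and in intermediate progenitors from −0.09 to 0.58, so these signs depend on the setting. Bhlhe22 kept its sign in intermediate progenitors (0.51 to 0.97) and maturing neurons (−0.71 to −0.13). With 1 library per label, the difference between the classes was not tested. The maturing neurons of E14 and E18 lay in different clusters, and the part of that in the ratios was not tested.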

How the results depend on the processing

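No paired analysis was possible because each label had 1 library. Of 152 alternative values for counts and orders, 140 lay within 1.5 times the main value. Of 473 for single members, 230 moved by more than 0.1 on the log2 scale and 243 did not. The number of members called in newborn neurons for E18 over E14, 1 as reported, was 2 with Leiden resolution 0.5 or 2, calls at 1.5-fold, removal of 2 times as many doublets, no doublet removal, each library clustered on its own, or members among the variable genes. Calls at 1.5-fold gave 5 members in intermediate progenitors for E16 over E14 (3 as reported) and 4 for E18 over E14 (2 as reported), beside more genes in all, as given with the report's ratios. For E18 over E16 there, 1 in place of 2 was called with each library clustered on its own or with no doublet removal, and in maturing neurons 1 in place of 2 with a mean of at least 20 CPM. The cause of these shifts was not tested, except that the threshold itself sets those at 1.5-fold. Maturing neurons were the least stable class: Neurod1 in E18 over E14 ran from −0.13 to 2.17 there, the latter after removal of 2 times as many doublets, and Nhlh1 from 1.15 to 4.39. The onset of Nhlh1 before Neurod6 and of Neurod6 before Bhlhe22 held in 2 or 3 libraries of 3 in each alternative, and the count of gate pairs ran from 10 to 12. The stricter cell filter left 322 cells of E14 with 44 newborn neurons, too few for a ratio. The depth limits members near the free RNA floor, above all Nhlh1 in maturing neurons of E14 and both Nhlh genes in radial glia.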
